A study of Homo sapiens with 2 samples.

Results

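Genes that encode mitochondrial ribosomal proteins were compared between control and FZR1 ko breast cancer cells, both treated with cisplatin. The members were the protein-coding genes whose current symbol is MRPL or MRPS followed by a number, without pseudogenes and readthrough genes. Of the 23033 genes with a value, 77 met this rule, 51 in the large and 26 in the small ribosomal subunit. RNAseq was performed on total RNA of 1 control library (genotype WT) and 1 FZR1 ko library. Both are labelled T-47D, a breast cancer line, with 2 µg/mL cisplatin, and the time of treatment is not given in the sources used here. The FZR1 ko line was made with CRISPR/Cas9 and grown from a single cell, so it stands for 1 clone. The control cells received the drug as well, and cells without cisplatin were not analysed here. With 1 library for each genotype no difference has a replicate check, and no test was made. All values are FPKM, fragment numbers corrected for the length of the transcript and for how many fragments were mapped. FPKM hold no read counts, so the depth is unknown.

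The mitochondrial ribosome translates the few messages encoded in mitochondrial DNA, all of them for subunits of the respiratory chain and the ATP synthase. Its RNAs come from the mitochondrial genome, while its proteins are encoded in the nucleus, made in the cytosol and imported. The large subunit forms the peptide bond and the small subunit reads the message. Many of these proteins have homologs in bacterial ribosomes, and others are found only in mitochondria. Factors that bind ETS and YY1 motifs are known regulators of such nuclear genes.

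The promoters of 69 members were matched in the RefSeq table of GRCh38.p14, and 8 members were not matched. Each window ran from 250 bases before to 50 bases after the start site, and the start nearest to the canonical one was taken. Motifs were searched as exact matches on both strands. ETS/GABP (CCGGAAG) was found in 30 of the 69 windows (43.5%), against 14.8% of 15344 protein-coding promoters and 21.0% of the 9454 whose gene was expressed here. The YY1 motif of 11 bases was found in 10 (14.5%), against 1.51% and 2.35%, and 9 of the 10 matches lay after the start site. SP/KLF (GGGCGG), E-box (CACGTG) and the NRF1 motif of 10 bases were found in 59.4%, 7.25% and 1.45% of member windows, against 61.8%, 8.86% and 1.77% of all promoters and 74.4%, 10.4% and 2.41% of those of expressed genes. More than 1 ETS/GABP match was found in 8 of the 69 member windows, against 2.79% of all promoters. That share was not computed for expressed genes. ETS/GABP and YY1 can share letters at their ends, but in the member windows the single overlap between different motifs was of an ETS/GABP and an SP/KLF match, in 1 window. SP/KLF matches can also overlap each other. A match describes the sequence only. An exact search misses sites that differ by a single letter, so a low share does not show that a factor has few sites. The promoters of MRPL1, among the 3 highest ratios of FZR1 ko to control, and of MRPL44, the lowest, are shown for the ends of the ranking. Those of MRPS26 and MRPS22 are shown for the ETS/GABP motif. They are the bases before the start site that no annotated exon covers, 5′ to 3′ on the strand of the gene, with matches to any of the 5 motifs in capitals.
MRPL1, chr4:77862580-77862829, plus strand: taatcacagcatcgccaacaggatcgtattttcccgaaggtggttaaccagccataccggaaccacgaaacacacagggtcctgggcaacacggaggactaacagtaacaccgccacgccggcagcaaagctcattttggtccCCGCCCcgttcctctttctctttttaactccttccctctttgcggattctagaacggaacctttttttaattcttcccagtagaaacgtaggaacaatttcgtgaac
MRPL44, chr2:223957213-223957462, plus strand: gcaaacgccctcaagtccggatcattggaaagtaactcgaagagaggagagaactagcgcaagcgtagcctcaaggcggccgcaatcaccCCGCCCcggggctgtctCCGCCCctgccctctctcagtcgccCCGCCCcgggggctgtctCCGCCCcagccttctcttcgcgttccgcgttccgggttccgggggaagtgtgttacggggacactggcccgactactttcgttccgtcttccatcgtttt
MRPS26, chr20:3045802-3046051, plus strand: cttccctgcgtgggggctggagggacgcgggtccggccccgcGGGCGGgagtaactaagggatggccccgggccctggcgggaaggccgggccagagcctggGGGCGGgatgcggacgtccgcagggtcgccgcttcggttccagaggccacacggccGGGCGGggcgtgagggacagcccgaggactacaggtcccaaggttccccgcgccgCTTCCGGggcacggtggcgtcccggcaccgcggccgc
MRPS22, chr3:139343770-139343955, plus strand: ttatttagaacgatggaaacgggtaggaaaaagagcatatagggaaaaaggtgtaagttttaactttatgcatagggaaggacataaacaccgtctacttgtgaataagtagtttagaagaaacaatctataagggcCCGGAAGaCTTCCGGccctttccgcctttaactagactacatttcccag
In MRPL1 the capitals mark a single SP/KLF match and in MRPL44 a run of 4 SP/KLF matches. MRPS26 has an ETS/GABP match close to its start site and 3 SP/KLF matches before it. In MRPS22, 2 ETS/GABP matches stand on opposite strands, separated by a single base, and a further match lies nearer the start site, outside the printed stretch, which ends 64 bases before it. By direction, 14 of 34 members higher in FZR1 ko (41.2%) and 16 of 35 lower members (45.7%) held ETS/GABP, and 3 of 34 higher and 7 of 35 lower members held YY1.

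Some facts of the whole series bear on these values. FZR1 itself had 12.3 and 10.1 FPKM in control and FZR1 ko, which does not check the genotype, since small insertions or deletions can leave an mRNA in place. Of 7 luminal markers, KRT8 and KRT18 were high in both libraries, while ESR1, PGR, GATA3 and CDH1 were each under 1 FPKM and FOXA1 had 5.07 and 4.65 FPKM. The mesenchymal marker VIM had 315 and 295 FPKM, and CDH2 had 2.97 and 15.3 FPKM. KRT8 and KRT18 are markers of luminal lines such as T-47D, while the low ESR1, PGR, GATA3 and CDH1 and the high VIM go against that label in both libraries, and the label is used here as a name only. The sums of all values were 502589 and 500488 FPKM.

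All 77 members were expressed in both libraries. Their levels ran from 4.23 to 507 FPKM in control, with a median of 53.2 FPKM. In FZR1 ko they ran from 9.48 to 395 FPKM, with a median of 56.0 FPKM. Together they made up 1.07% of all FPKM in control and 1.02% in FZR1 ko, and their sum was 5370 and 5105 FPKM (log2 ratio -0.07). Levels per length thus spread 120-fold among proteins of 1 complex in control and 41.7-fold in FZR1 ko. The order of the members was much alike in the libraries (Spearman's rho 0.926 over 77 genes, which share both libraries and their gene lengths). Ranked by the mean of both libraries, the highest was MRPS24, the homolog of bacterial uS3 at the entry of the mRNA channel, with 507 and 395 FPKM. Pairs of values are given here and below as control first and FZR1 ko next. MRPS24 shares exon sequence with a readthrough gene, URGCP-MRPS24, at 3.68 and 2.56 FPKM. It was followed by MRPL51 (213 and 194 FPKM), MRPL32 (216 and 135 FPKM), MRPL37 (179 and 146 FPKM) and MRPS15 (159 and 143 FPKM). All 5 were lower in FZR1 ko, and without them the log2 ratio of the summed FPKM was -0.0014. The lowest by this mean were MRPL1 (4.23 and 10.46 FPKM), MRPL19 (7.0 and 9.48 FPKM), MRPS14 (14.4 and 13.3 FPKM), MRPS31 (12.8 and 15.0 FPKM) and MRPL57 (18.4 and 12.5 FPKM).

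**Figure D1:**
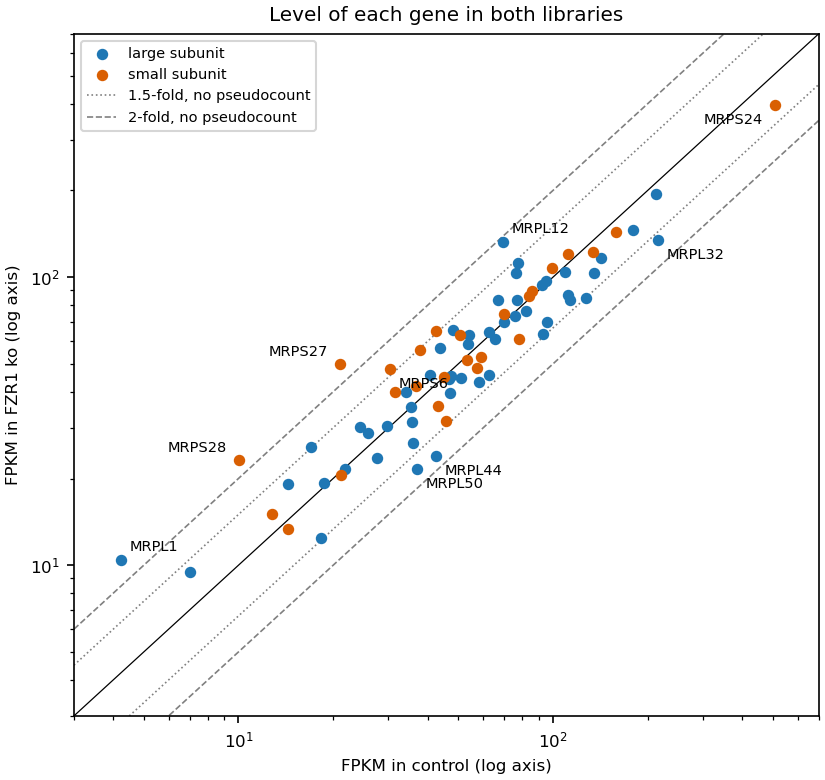
FPKM of each of the 77 members in control (x axis, log scale) and FZR1 ko (y axis, log scale), 1 library each, with large subunit genes in blue and small subunit genes in orange. The points follow the line of equal values over levels from 4.23 to 507 FPKM, and MRPS27, MRPS28 and MRPL1 lie above the 2-fold line.

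The comparison of the libraries asked how the family stood after loss of FZR1 under cisplatin. Each ratio is the log2 of FPKM + 1 in FZR1 ko divided by FPKM + 1 in control. Of the 77 members, 39 were higher and 38 were lower in FZR1 ko, against 49.6% higher and 50.3% lower of the 13554 genes that reached 1 FPKM in either library. The median log2 ratio was 0.0014 for the members and -0.00485 for these 13554 genes. The median of the members is that of MRPL33 (69.9 and 70.0 FPKM), a small protein of the large subunit. The spread of the members was narrower, with an SD of 0.41 against 0.69, and with quartiles of -0.25 and 0.22 against -0.42 and 0.43. At least 1.5-fold apart were 9 members, against 35.6% of all genes, and at least 2-fold apart were 3 members, against 13.5%. The counts were repeated for the 5938 genes, 75 members among them, that reached 10 FPKM in each library. There 37 members were higher, against 46.3% of the genes, and 38 were lower, against 53.6%. At least 1.5-fold higher were 5 members, against 10.3%, and 3 were at least 1.5-fold lower, against 15.2% (8 apart in all, against 25.5%). At least 2-fold higher were 2 members, against 2.43%, and 0 were 2-fold lower, against 4.24% (6.67% apart). The SD was 0.40 for these members and 0.54 for the genes. Within 10% of equal were 27 members (35.1%), against 17.5% of all 13554 genes and 22.0% of those that reached 10 FPKM.

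**Figure D2:**
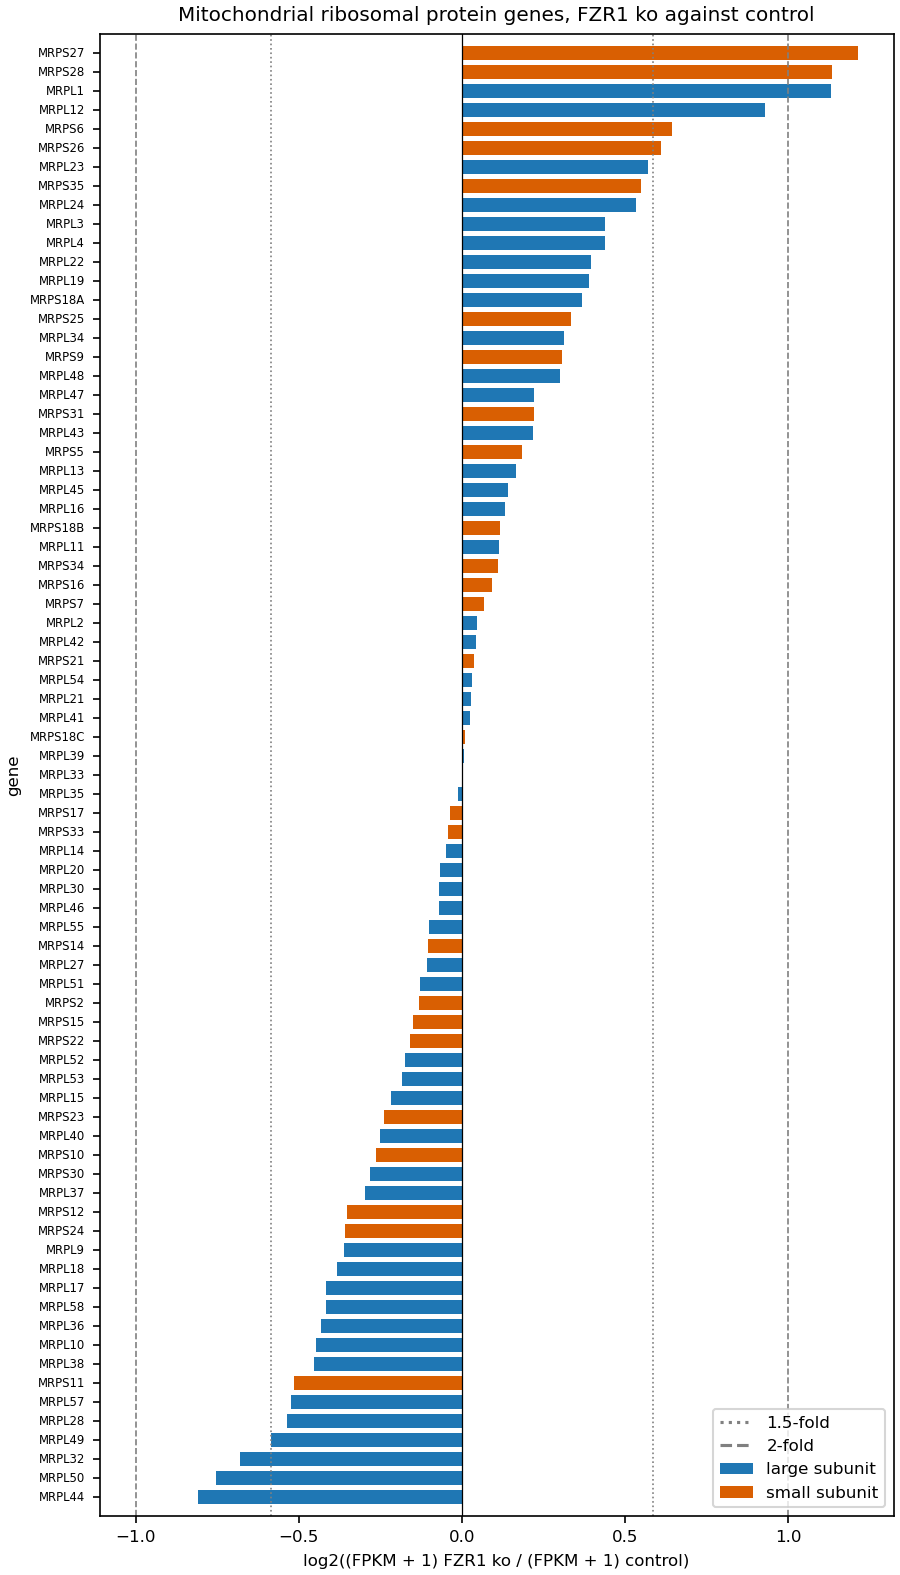
log2 ratio of FZR1 ko to control (x axis) of the 77 members ranked by that ratio (y axis), with large subunit genes in blue and small subunit genes in orange. From MRPS27 (1.21) to MRPL44 (-0.81) the bars cross 0 near the middle, and 6 bars pass the dotted 1.5-fold line upwards and 3 downwards.

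Higher by at least 1.5-fold in FZR1 ko were 6 members, against 18.0% of all genes, and 3 of them by at least 2-fold, against 6.78%. MRPS27, a pentatricopeptide repeat protein of the small subunit, had 21.0 and 49.98 FPKM (log2 ratio 1.21). MRPS28, the homolog of bacterial S1, had 10.04 and 23.2 FPKM (1.13). MRPL1, which forms the mobile L1 stalk beside the site where tRNA leaves, had 4.23 and 10.46 FPKM (1.13). These are the members past 2-fold, and MRPL1 was also the lowest of the family in control. MRPL12, of the stalk that recruits translation factors and also a partner of the mitochondrial RNA polymerase, had 69.3 and 133 FPKM (0.93). MRPS6 had 30.3 and 48.0 FPKM (0.64) and MRPS26 had 42.4 and 65.3 FPKM (0.61). MRPL23 (17.0 and 25.8 FPKM, 0.57) and MRPS35 (37.9 and 56.0 FPKM, 0.55) stayed just under the 1.5-fold line. MRPL12 stood out among them as an abundant gene, since the 3 above it had at most 21.0 FPKM in control. GENCODE exons of other genes overlap those of MRPS28, MRPL12 and MRPS6 on the same strand, so their values are less certain. For MRPS6 one such gene is SLC5A3, at 5.22 and 3.95 FPKM. In the whole family 29 members have an exon overlap with another gene, 14 on the same strand and 21 on the opposite strand. Some have both, and not all of them are named.

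Lower by at least 1.5-fold in FZR1 ko were 3 members, all of the large subunit, against 17.6% of all genes, and none was 2-fold lower, against 6.72%. MRPL44, a mitochondria-specific protein related to RNase III, had 42.5 and 23.9 FPKM (log2 ratio -0.81). MRPL50, also mitochondria-specific, had 37.0 and 21.6 FPKM (-0.75). MRPL32, a bacterial homolog that is trimmed by a mitochondrial protease before it joins the ribosome, had 216 and 135 FPKM (-0.68). Next came MRPL49 (127 and 84.6 FPKM, -0.58), just inside the line but past it as a plain ratio (0.665), MRPL28 (92.7 and 63.7 FPKM, -0.54), MRPL57 (18.4 and 12.5 FPKM, -0.52), MRPS11 (45.7 and 31.7 FPKM, -0.51) and MRPL38 (96.0 and 69.9 FPKM, -0.45). Of these 8 lowest ratios, 7 belonged to the large subunit, which holds 51 of the 77 members. MRPL44, MRPL49 and MRPL38 overlap exons of genes on the opposite strand, MRPL38 also on its own strand, and the use of strand in counting is not given in the sources used here.

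The counts by subunit stand beside 49.6% higher and 50.3% lower over the 13554 genes. In the large subunit 24 of 51 members were higher and 27 lower (median log2 ratio -0.05, summed FPKM 3429 in control and 3203 in FZR1 ko). The sign of this median turned when trends with length and GC were taken out (0.05) and when that of genomic span was (0.14). In the small subunit 15 of 26 were higher and 11 lower (median 0.05, sums 1941 and 1902 FPKM). Removal of the span trend gave 33 higher and 18 lower in the large subunit and 21 and 5 in the small (median 0.17). All genes are then centred on 0 by construction. Without that step the quartiles of the subunits overlapped, from -0.33 to 0.19 in the large and from -0.15 to 0.29 in the small subunit. Divided further, mitochondria-specific proteins were lower in 13 of 21 cases in the large subunit (median -0.17) and higher in 7 of 10 cases in the small subunit (median 0.17). With the trend of genomic span removed, as described below, the first count was 11 of 21 (median -0.03) and the second 9 of 10 (median 0.32). Members with a bacterial homolog were divided 16 higher and 14 lower in the large subunit and 8 and 8 in the small subunit. With the span trend removed they were 23 and 7 in the large subunit (median 0.23) and 12 and 4 in the small subunit (median 0.13).

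The members were also described by their place in the ribosome. The 5 members listed for the exit of the nascent chain, which are not all proteins near it, were higher in FZR1 ko, with a median log2 ratio of 0.39, and their summed levels were 169 and 226 FPKM. MRPL23 and MRPL24 (77.2 and 112 FPKM, 0.53) had the highest ratios of these, followed by MRPL22 (14.4 and 19.2 FPKM, 0.39). MRPL47 had 34.2 and 40.0 FPKM (0.22). MRPL45, which ties the ribosome to the inner membrane, had 25.9 and 28.7 FPKM (0.14). MRPL32 (-0.68) and MRPL17 (35.8 and 26.6 FPKM, -0.42), also near the exit but not in the list, were lower, and MRPL17 is named after its value was seen. None of the 5 passed 1.5-fold with the pseudocount of 1 FPKM. MRPL23 did so as a plain ratio of FPKM (1.51), and MRPL23 (0.73) and MRPL24 (0.72) did so with the trend of genomic span removed, as described below. The 3 members of the factor-binding stalk differed among themselves. Beside MRPL12 (0.93), MRPL11 had 77.1 and 83.4 FPKM (0.11), and MRPL10, which anchors MRPL12 to the ribosome, had 62.9 and 45.9 FPKM (-0.45). The summed stalk level was 209 and 262 FPKM. In the central protuberance, which faces the small subunit, 5 of 6 members were lower (median -0.18), but with the span trend removed 4 were, as MRPL27 (0.10) and MRPL46 (0.17) turned higher and MRPL48 (-0.06) lower. They were MRPL38, MRPL18 (135 and 104 FPKM, -0.38), MRPL40 (47.1 and 39.5 FPKM, -0.25), MRPL27 (82.0 and 76.1 FPKM, -0.11) and MRPL46 (46.7 and 44.4 FPKM, -0.07). MRPL48 had 24.4 and 30.3 FPKM (0.30). At the decoding site and mRNA channel of the small subunit, MRPS12 had 78.3 and 61.1 FPKM (-0.35), MRPS24 had a log2 ratio of -0.36, and MRPS5 had 36.8 and 41.9 FPKM (0.18). These groups hold few genes, and over all genes 49.6% were higher and 50.3% lower. The counts of these groups describe the libraries only.

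Related members with special roles were given the same description. The paralogs related to bacterial S18 occupy different places, MRPS18A in the large subunit and MRPS18B and MRPS18C in the small subunit. MRPS18C is counted above as the bacterial homolog, and MRPS18A and MRPS18B, which lie elsewhere in the ribosome, as mitochondria-specific. MRPS18A had 43.9 and 56.9 FPKM (log2 ratio 0.37). MRPS18B had 99.7 and 108 FPKM (0.12), and MRPS18C had 44.9 and 45.2 FPKM (0.01). MRPL37 and MRPS30, also related to each other and both in the large subunit, were each lower, with log2 ratios of -0.30 for MRPL37 and -0.28 for MRPS30 (142 and 117 FPKM). MRPS30 carries the older name PDCD9 from a link to programmed cell death. MRPL41, known as a partner of BCL2 and p53, had 95.3 and 97.0 FPKM (0.03). MRPL58, a peptidyl-tRNA hydrolase that frees stalled chains, had 58.1 and 43.2 FPKM (-0.42). None of these genes passed 1.5-fold.

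The genomic span of a member, from the start to the end of its canonical GENCODE 44 transcript (hg38) with introns, was examined after the values were seen. Of the 6 members that span 50 kb or more, all 6 were higher in FZR1 ko, with a median log2 ratio of 0.89. In the same class 80.3% of 3327 protein-coding genes were higher, with a median of 0.465, so the long members had the direction of most long genes. What moves with span in these libraries was not tested. The 3 members past 2-fold are the longest of the family. MRPS28 spans 111543 bases on chromosome 8, MRPS27 spans 100838 bases on chromosome 5 from 72219403 to 72320240, and MRPL1 spans 89956 bases on chromosome 4 from 77862830 to 77952785. The others were MRPL48 (77260 bases), MRPS6 (69453 bases) and MRPS9 (61892 bases, 50.7 and 63.0 FPKM, 0.31). Among the 43 members under 10 kb, 18 were higher and 25 lower (41.9% higher, median -0.10), against 35.0% of 2824 protein-coding genes with a median of -0.20. Among the 28 members between these limits, 53.6% were higher, against 43.1% of 5303 genes. Over the 77 members Spearman's rho between span and log2 ratio was 0.37, and without the 3 members past 2-fold it was 0.29. Over 11454 protein-coding genes it was 0.45, and over the 5714 that reached 10 FPKM in each it was 0.32. Genes of a family share the library, so these values are descriptions. Transcript length (rho -0.10) and GC content (rho -0.07) followed the ratio less among the members.

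**Figure D3:**
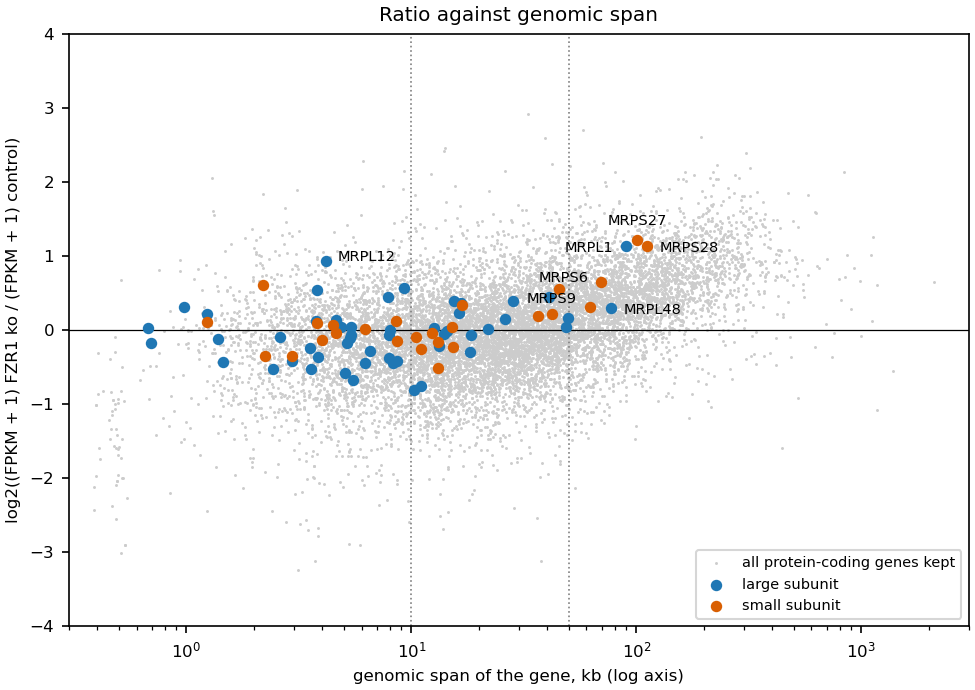
log2 ratio of FZR1 ko to control (y axis) against genomic span in kb (x axis, log scale), with all 11454 protein-coding genes in grey, large subunit members in blue and small subunit members in orange. Dotted lines mark 10 and 50 kb, and the 6 members beyond 50 kb all lie above 0 within a grey cloud that also turns upwards there.

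The family is mostly short, with a median span of 8.27 kb against 25.4 kb for the protein-coding genes. When the median ratio of 20 groups of genes of like span was subtracted, 54 members were higher and 23 lower, and the median log2 ratio was 0.16, beside a median over all 11454 genes that the subtraction sets to 0. The ranking changed as well. MRPL12, of 4151 bases on chromosome 17 from 81703367 to 81707517, then had the highest ratio (1.12) and was the only member past 2-fold. MRPS26, of 2199 bases on chromosome 20 from 3046052 to 3048250, followed with 0.87. MRPL1 had 0.77, MRPS27 0.74 and MRPS28 0.66, all above the median of genes of like span. After this step 8 members were at least 1.5-fold higher, in place of 6, and 1 was at least 1.5-fold lower, in place of 3. These 9 members stand beside 26.7% of all genes that were at least 1.5-fold apart after the same step. MRPL44 (-0.60) stayed past the 1.5-fold line, while MRPL50 (-0.54) and MRPL32 (-0.47) no longer did. On the upper side MRPS6 (0.38) no longer passed it, while others newly did.

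Of the 77 members, 26 start head-to-head with another protein-coding gene whose start lies within 1000 bases on the opposite strand. In 24 such pairs the partner was expressed as well. The members of a pair went in the same direction in 11 pairs and in opposite directions in 13, with a Spearman's rho of 0.02 over the 24 pairs. MRPL40 (-0.25) starts 812 bases from HIRA, a histone chaperone gene of 101 kb, which had 5.33 and 10.7 FPKM (0.88). MRPL51 (-0.13) lies beside NCAPD2, a condensin subunit, with 26.8 and 40.0 FPKM (0.56). MRPS12 (-0.35) starts 181 bases from SARS2, the mitochondrial seryl-tRNA synthetase, with 12.4 and 15.9 FPKM (0.34). In these 3 pairs the longer gene had the higher ratio, and over all pairs this held in 11 of 24. MRPL50 and ZNF189 (8.19 and 4.81 FPKM, -0.66) were both lower, and MRPL46 and MRPS11, the pair in which both are members, had ratios of -0.07 and -0.51. The partners named here were chosen after their values were seen.

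Related gene lists were set beside the members, and over all genes 49.6% were higher and 50.3% lower. The 5 mitoribosomal proteins of other names had a median log2 ratio of 0.15. PTCD3, a pentatricopeptide repeat protein, had 8.80 and 16.4 FPKM (0.83), and DAP3, a GTPase with a link to cell death, had 84.0 and 98.95 FPKM (0.23). CHCHD1 had 61.2 and 68.2 FPKM (0.15), GADD45GIP1 had 240 and 242 FPKM (0.02), and AURKAIP1 had 175 and 173 FPKM (-0.02). Of 24 assembly factors, 12 were higher and 12 lower (median -0.0027). METTL15, an rRNA methyltransferase, had 1.52 and 4.98 FPKM (1.25), TFB1M 1.72 and 3.27 FPKM (0.65), NGRN 203 and 125 FPKM (-0.70), and DDX28 13.0 and 7.95 FPKM (-0.65). Of 16 translation factors, 11 were higher (median 0.15). LRPPRC, which stabilizes mitochondrial mRNA, had 34.1 and 67.4 FPKM (0.96) and the initiation factor MTIF2 had 25.8 and 41.9 FPKM (0.68). The release factor MTRF1L had 19.9 and 8.77 FPKM (-1.10) and MTRFR had 28.9 and 22.3 FPKM (-0.36).

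The mitochondrial tRNA synthetases, which charge the tRNAs read by this ribosome, had the highest median of the lists. Of 17 genes, 14 were higher and 3 lower in FZR1 ko, with a median log2 ratio of 0.55, and 8 were at least 1.5-fold higher, against 18.0% of all genes. Of these 8, FARS2 (0.69 and 2.28 FPKM) reached 1 FPKM in FZR1 ko alone. LARS2 had 4.63 and 15.8 FPKM (1.58) and NARS2 had 5.66 and 17.1 FPKM (1.44), while VARS2 had 33.9 and 26.5 FPKM (-0.35) and PARS2 had 5.34 and 4.09 FPKM (-0.32). These genes are longer, with a median span of 33.9 kb and with 7 of 17 of at least 50 kb, and span and ratio went together (rho 0.80 over 17 genes). In the other lists of more than 5 genes rho was from 0.06 for the cytosolic ribosomal proteins and 0.07 for the regulators to 0.55 for the assembly factors. The part of span in this difference was not tested. Of 20 factors of mitochondrial DNA and RNA, 10 were higher (median 0.03), from PRORP (4.43 and 10.7 FPKM, 1.11) and PNPT1 (18.8 and 30.2 FPKM, 0.65) to TBRG4 (122 and 83.1 FPKM, -0.55) and FASTKD5 (32.0 and 17.1 FPKM, -0.87). Of 78 nuclear-encoded respiratory chain and ATP synthase subunits, 45 were higher (median 0.06), from ATP5MC2 (212 and 400 FPKM, 0.91) and ATP5MC1 (248 and 453 FPKM, 0.87) to UQCRC2 (107 and 66.8 FPKM, -0.67) and NDUFA6 (97.6 and 60.4 FPKM, -0.68). Of 79 cytosolic ribosomal proteins, 69 were higher (median 0.17, SD 0.19), from RPS3 (0.63) to FAU (-0.30) and RPS15A (-0.41). The members had a wider spread (SD 0.41) and a median nearer to 0. Of the cytosolic ribosomal protein genes, 76 of 79 span under 10 kb.

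**Figure D4:**
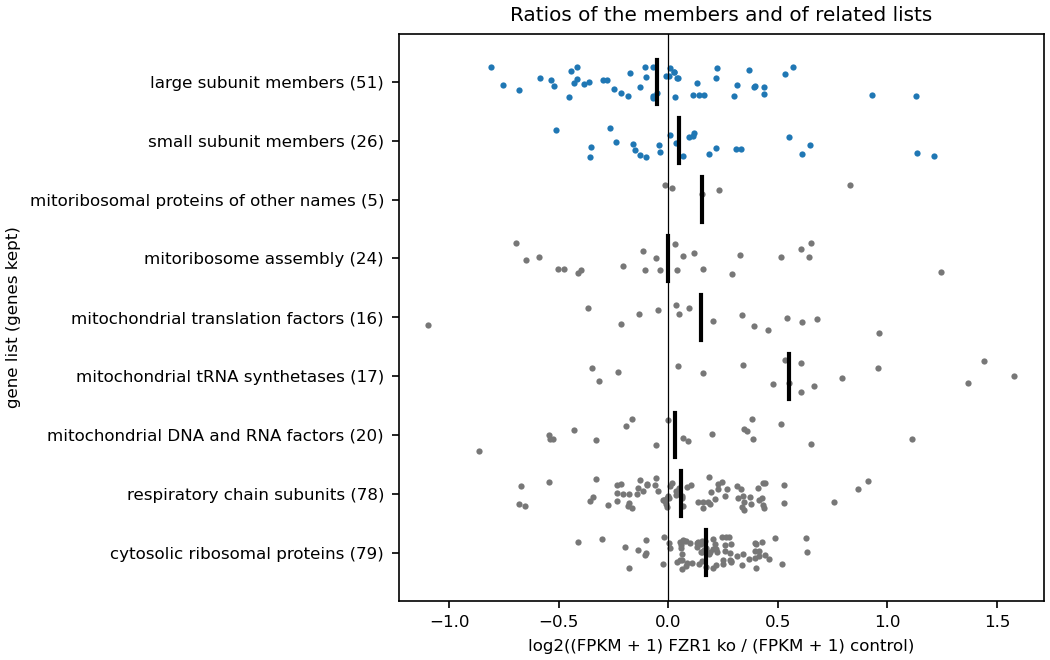
log2 ratio of FZR1 ko to control (x axis) of each gene in the 2 groups of members (blue) and 7 related lists (grey, y axis, genes kept in brackets), with a black bar at each median. The mitochondrial tRNA synthetases have the highest median (0.55), and both subunits of the mitochondrial ribosome lie around 0.

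Regulators of mitochondrial biogenesis were also listed, and 8 of 10 reached 1 FPKM. GABPA and GABPB1, which form the factor that binds the ETS/GABP motif, had 7.97 and 5.02 FPKM (log2 ratio -0.58) and 20.2 and 13.0 FPKM (-0.60). PPARGC1A, a coactivator of these factors, had 0.52 and 2.24 FPKM (1.09) and so reached 1 FPKM in FZR1 ko alone. MYC had 54.8 and 93.8 FPKM (0.76). The motif of YY1 is described above, and its factor had 21.4 and 28.9 FPKM (0.42). An mRNA level does not give the activity of a factor, and the part of these regulators in the members' values was not tested.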

How the data were processed

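RNAseq was performed on a BGISEQ-500 platform. Reads were aligned by the authors with Bowtie2 to transcripts of hg38 (UCSC) and quantified with RSEM, and the authors deposited FPKM for each Entrez gene ID to 2 decimals. The submitters' processing notes list Trimmomatic 0.36, HISAT2 2.1.0, Bowtie2 2.2.5 and RSEM. The annotation, the filters and the strand setting are not given in the sources used here. Of 24663 rows, 1630 had no value. Current symbols came from RefSeq (22925 of 23033 IDs matched). RSEM divides reads shared by near-identical copies, and RefSeq holds 106 pseudogenes named after such genes (3 with a value here), so reads from these copies are uncertain.

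The log2 ratio used a pseudocount of 1 FPKM, which understates the change of low genes, and genes of at least 1 FPKM in at least 1 library. Counts past 1.5-fold (0.58 on the log2 scale) and 2-fold, medians and sums were computed. The code was tested on simulated data. The members, lists and motifs were chosen with earlier results of these data known. Named genes are those of the 8 highest and 8 lowest ratios, the 5 highest and 5 lowest levels, the functional groups, both ends of each list (with 1 exception that is not reported here), and genes said to be chosen later. Spans, transcript lengths and head-to-head starts came from GENCODE 44 on hg38. Alternatives were other pseudocounts, filters and scalings, removal of the trend with GC content and length, and, added after the values were seen, with span. Python 3.11.15, numpy 2.4.6, pandas 2.3.3 and matplotlib 3.10.9 were used. Protein sequences were not used here.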

Additional observations from a re-analysis of the deposited data

How the results depend on the processing

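No paired analysis was possible because there is 1 library for each genotype and no test was made, so no replicate could be left out either. Under a pseudocount of 0.1 or 5 FPKM, no filter, at least 10 FPKM in both libraries, centring, rescaling to the same sum, and removal of the trend with GC content and transcript length, 37 to 44 members were higher and 33 to 38 lower. The number at least 1.5-fold apart was 7 to 11, with 4 to 9 higher and 2 to 4 lower, while the share of all genes was lowest at 17.3% (pseudocount 5 FPKM) and highest at 43.0% (pseudocount 0.1 FPKM). With a pseudocount of 5 FPKM 1 member was 2-fold apart in place of 3, as a larger pseudocount shrinks ratios of low genes by its construction. The median of the large subunit changed sign when the GC and length trend was removed, from -0.05 to 0.05, and that of all members when 10 FPKM in both libraries was required, from 0.0014 to -0.01. Removal of the span trend, chosen after the values were seen, gave 23 lower members, 1 member at least 2-fold apart, 8 members at least 1.5-fold higher and 1 lower (6 and 3 without it, and 26.7% of all genes apart), and medians of 0.16 for all members, 0.14 for the large and 0.17 for the small subunit, with all genes centred on 0 by construction. The depth is unknown, so the counting error of MRPL1 and other low members cannot be given.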
